A study of Mus musculus with 18 samples.

Results

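Fatty acid oxidation and its transcriptional control by PPAR receptors were described here through 34 mouse genes, all of them found by symbol among the 19094 protein-coding genes of the deposited count table. The genes were chosen by function, covering fatty acid uptake, acyl-CoA activation, the carnitine shuttle, the beta-oxidation spiral, electron transfer, lipid droplets and PPAR-responsive genes. RNA sequencing had been done on cells isolated from the hearts of 3 Bag3-P209L Tg+ mice and 3 Bag3-WT mice, all aged 16 months. Cardiomyocytes gave 12 libraries, rep1 and rep2 of each mouse, and cardiac fibroblasts gave 6, 1 of each mouse. Bag3 encodes a co-chaperone of heart and muscle, P209L is an amino acid change in it, and Tg+ marks carriers of the transgene. The labels name neither the promoter of the transgene nor the species of its sequence nor a strain. The animal codes carry the letter F in Tg mouse 1, Tg mouse 3 and WT mouse 1, and the letter M in the other mice. Nothing in the labels says what the letter stands for.

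The heart draws most of its energy from long-chain fatty acids. These enter the cell through surface proteins such as CD36, are bound by cytosolic carriers, activated to acyl-CoA, passed into mitochondria as carnitine esters and shortened in the beta-oxidation spiral, whose electrons reach the respiratory chain through electron transfer flavoprotein. PPARα and PPARδ are nuclear receptors that bind fatty acids, pair with RXR and switch on many of these genes in muscle and liver.

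The level of a gene is given as nuclear CPM (counts per 1000000 estimated counts of nuclear genes), scaled between libraries by the TMM method of edgeR. The 13 mitochondrial genes were left out of the scaling because they took 51.7% to 85.5% of the counts of a mouse in cardiomyocytes and 16.6% to 74.2% in fibroblasts. This left 2262000 to 7793000 nuclear counts per mouse in cardiomyocytes, both libraries of a mouse summed, and 11310000 to 15810000 in fibroblasts (rounded to 4 digits). A count of 3, the limit that a count of 0 allows, came to 0.385 to 1.33 CPM in cardiomyocytes, so Ppara in most mice, and Angptl4 in WT mice, lay close to it there. The labelled cell types were checked against marker genes. The 13 cardiomyocyte markers summed to 3585 to 9228 CPM in cardiomyocyte libraries and 1409 to 3706 CPM in fibroblast libraries, and 12 of them were called higher in cardiomyocytes. The 12 fibroblast markers summed to 9435 to 23930 CPM in cardiomyocyte libraries and 5114 to 19110 CPM in fibroblast libraries, so this list did not separate the preparations. The 12 macrophage markers summed to 1189 to 4306 CPM in cardiomyocyte libraries and 5917 to 20090 CPM in fibroblast libraries, with all 12 called lower in cardiomyocytes. The 8 smooth muscle and pericyte markers were all called higher in cardiomyocyte libraries (median log2 fold change 1.69, sums of 823 to 4586 CPM in cardiomyocyte libraries and 316 to 1916 CPM in fibroblast libraries), and the 5 erythroid markers were all called lower (median -1.63). Both preparations held markers of other cell types, and the part of their cell makeup in any member's difference was not tested.

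**Figure D1:**
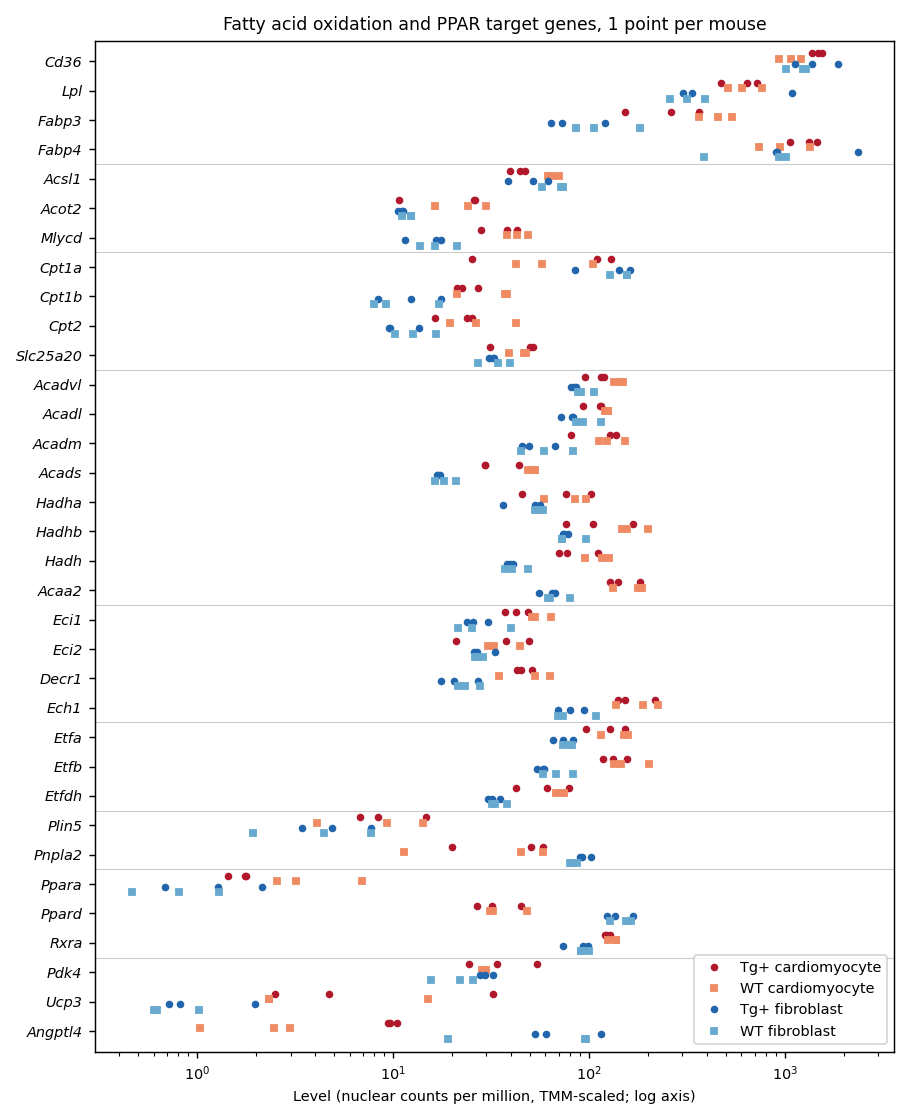
Level of each of the 34 genes in every mouse, in nuclear CPM on a log axis, by genotype and labelled cell type (3 mice a group, 1 point per mouse). Cd36, Fabp4 and Lpl stand at the top in both cell types, and Ppara is among the lowest in both.

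The start regions of the members were read for the element that PPAR-RXR pairs bind, a direct repeat of the hexamer AGGTCA with 1 base between the copies. RefSeq start windows of GRCm38.p6, cut to 250 bases before and 30 after each start, were matched by symbol for 28 of the 34 genes, which gave 31 windows. No member window held the exact letters AGGTCANAGGTCA on either strand, which 12 of all 32851 windows (0.0365%) held. With up to 2 mismatches, a limit chosen after the scan had been seen, 5 member windows (16.1%) and 1177 of all windows (3.58%) held a match. The matches lay at Ucp3, Etfa and Slc25a20, and at alternative starts inside Cd36 and Rxra. A match describes the letters and is no evidence of binding. The windows of Ucp3, Etfa and Slc25a20 are printed because their matches lie near the start of the gene's main transcript, in gene orientation and with the match in capitals. In Ucp3 it runs from base -51 to -39 relative to the start, in Etfa from -77 to -65 on the opposite strand, and in Slc25a20 from 6 to 18 after the start.
Ucp3, chr7:100472741-100473020, plus strand: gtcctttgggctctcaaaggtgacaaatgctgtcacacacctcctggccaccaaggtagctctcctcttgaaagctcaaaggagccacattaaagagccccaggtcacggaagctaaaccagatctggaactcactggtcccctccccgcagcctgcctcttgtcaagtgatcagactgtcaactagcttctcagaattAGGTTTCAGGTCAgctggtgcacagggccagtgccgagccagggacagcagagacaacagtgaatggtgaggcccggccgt
Etfa, chr9:55512214-55512493, minus strand: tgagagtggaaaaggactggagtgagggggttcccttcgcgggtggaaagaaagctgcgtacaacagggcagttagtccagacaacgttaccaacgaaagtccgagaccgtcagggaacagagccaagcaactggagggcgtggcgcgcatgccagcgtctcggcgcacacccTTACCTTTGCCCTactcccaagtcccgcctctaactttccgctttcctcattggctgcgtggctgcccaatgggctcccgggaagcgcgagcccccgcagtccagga
Slc25a20, chr9:108661886-108662165, plus strand: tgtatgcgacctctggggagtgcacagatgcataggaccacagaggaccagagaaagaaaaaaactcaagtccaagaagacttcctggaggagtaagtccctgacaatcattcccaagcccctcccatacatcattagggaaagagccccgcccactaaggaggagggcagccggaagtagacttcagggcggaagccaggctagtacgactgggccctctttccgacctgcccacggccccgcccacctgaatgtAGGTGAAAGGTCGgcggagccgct
Hadha and Hadhb, which encode the α and β subunits of the mitochondrial trifunctional protein, lie head to head on chromosome 5. Their 280-base start windows share 228 bases, and the Hadhb window is printed to show this overlap.
Hadhb, chr5:30155003-30155282, plus strand: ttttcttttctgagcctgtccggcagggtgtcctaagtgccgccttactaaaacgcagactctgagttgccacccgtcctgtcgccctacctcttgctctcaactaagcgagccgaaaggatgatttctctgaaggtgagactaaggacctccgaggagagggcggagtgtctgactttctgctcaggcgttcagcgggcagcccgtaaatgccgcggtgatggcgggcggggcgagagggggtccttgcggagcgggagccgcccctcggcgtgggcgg

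Within mice, most fatty acid oxidation genes were higher in the cardiomyocyte preparation. Of the 34 genes, 20 were called higher and 4 lower (edgeR quasi-likelihood test with the mouse as block, Benjamini-Hochberg adjusted p under 0.05 over 14769 genes), and 10 were not called. Among all genes tested, 18.3% were called higher and 24.1% lower. The median log2 fold change was 0.83 over the members and -0.03 over all genes. The 34 genes together took 4924, 6024 and 5805 CPM in cardiomyocytes of Tg mice 1 to 3 and 5254, 5699 and 5274 CPM in those of WT mice 1 to 3. In fibroblasts they took 3881, 4224 and 6864 CPM in Tg mice 1 to 3 and 3543, 4291 and 4154 CPM in WT mice 1 to 3. In bulk samples such as these, fewer cells of a type and less RNA per cell cannot be told apart. In each mouse separately, 19 members were higher in the cardiomyocyte library in all 6 mice, against 17.2% of all genes. Cpt1a, Pnpla2, Ppard and Angptl4 were lower in all 6. The share of all genes lower in all 6 mice was not computed, so these 4 members have no background to be set against.

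Scaling by library size alone, without TMM, moved the median over all genes to 0.40 and the calls over all genes to 4787 higher and 2293 lower, against 2699 higher and 3566 lower with TMM. The members then had a median of 1.26, with 26 called higher and 2 lower. The scaling shifts all genes of a library alike, so the gap between the members' median and that of all genes is the same by construction.

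**Figure D2:**
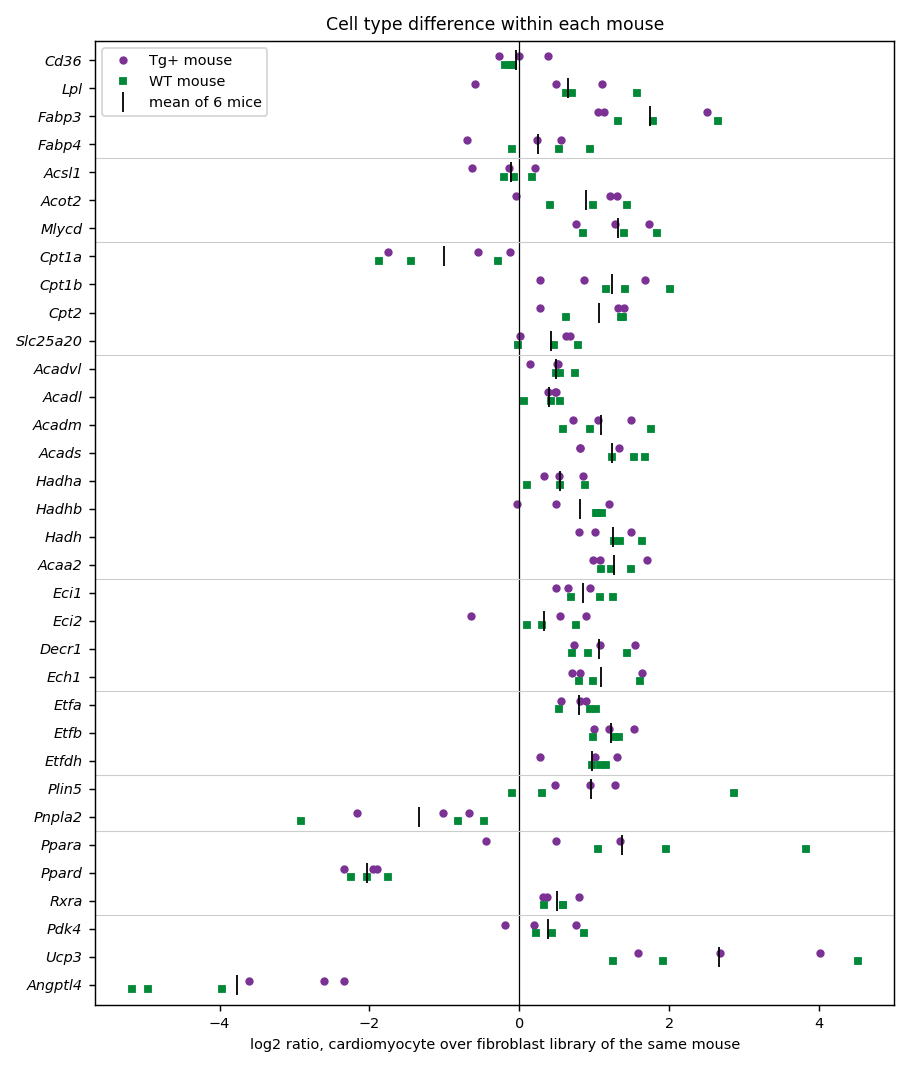
Log2 ratio of the cardiomyocyte over the fibroblast level in each of the 6 mice, by genotype of the mouse, with the mean as a bar. Beta-oxidation and electron transfer genes sit right of 0 in nearly every mouse, while Ppard and Angptl4 sit left of it in all 6.

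Of the 4 uptake genes, Fabp3 was called higher in cardiomyocytes and the others were not called. Cd36, the membrane fatty acid translocase, had a lowest, median and highest level of 935, 1287 and 1548 CPM in cardiomyocytes and 1008, 1260 and 1866 CPM in fibroblasts. Its ranges overlapped almost wholly (log2 fold change -0.05 ± 0.19 SE, adjusted p = 0.854, edgeR), and without TMM the sign turned, at 0.38. Fabp3, the heart-type fatty acid binding protein, had 152, 364 and 540 CPM in cardiomyocytes and 64.3, 95.7 and 183 CPM in fibroblasts. It was 3.33-fold higher in cardiomyocytes (log2 fold change 1.74 ± 0.26 SE, adjusted p = 3.27e-04), and higher in 6 of 6 mice. Fabp3 shares 12.7% of its 31-base stretches with other genes' transcripts and 6.43% of all its stretches with Zcchc17.

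Lpl, the lipase that frees fatty acids from circulating triglyceride, had 470, 625 and 764 CPM in cardiomyocytes and 258, 326 and 1083 CPM in fibroblasts. The highest fibroblast value came from Tg mouse 3, the single mouse in which Lpl was lower in cardiomyocytes. Across mice the log2 fold change of Lpl was 0.66 ± 0.26 (SE), short of the threshold (adjusted p = 0.0658, edgeR). It was called by DESeq2 (0.68), by limma voom (0.66), without TMM (1.10) and without Tg mouse 3 (0.95). Fabp4, the binding protein of adipocytes, also made by endothelial cells and macrophages, had 741, 1193 and 1462 CPM in cardiomyocytes and 386, 922 and 2364 CPM in fibroblasts, and was not called (log2 fold change 0.25 ± 0.24 SE). Of the other adipocyte markers, Adipoq, Plin1, Lep, Cidec, Retn, Cfd and Pck1 were at 2.04 CPM or less in every mouse and cell type. Ucp1 was at 3.04 CPM or less, while Lipe, also on the list, had 42.8 to 120 CPM. Together Cd36, Fabp4 and Lpl made up 46.4% to 64.2% of the summed member level in cardiomyocytes and 46.6% to 77.4% in fibroblasts. Per kilobase of transcript, the scale on which genes can be compared, Fabp4 ranked first in both cell types, and Fabp3, Cd36, Etfb, Lpl and Ech1 followed in cardiomyocytes.

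Of the genes that make and release acyl-CoA, Mlycd and Acot2 were higher in cardiomyocytes. Mlycd, malonyl-CoA decarboxylase, which removes the inhibitor of carnitine palmitoyltransferase 1, had 28.1, 40.5 and 49.0 CPM in cardiomyocytes and 11.5, 16.4 and 21.1 CPM in fibroblasts, with no overlap (log2 fold change 1.31 ± 0.22 SE, adjusted p = 6.11e-04, edgeR). Acot2, a mitochondrial acyl-CoA thioesterase, had 10.8, 25.1 and 29.9 CPM in cardiomyocytes and 10.6, 11.2 and 12.3 CPM in fibroblasts (log2 fold change 0.90, adjusted p = 0.0154). Tg mouse 3 was the mouse whose cardiomyocytes stayed within the fibroblast range. The Acot2 call was lost without Tg mouse 1 (0.82) and without Tg mouse 2 (0.83), and 37.8% of its 31-base stretches are shared with other genes and 29.8% of all its stretches with Acot1. Acsl1, the main long-chain acyl-CoA synthetase of heart, had 39.8, 54.6 and 70.2 CPM in cardiomyocytes and 38.5, 59.7 and 73.9 CPM in fibroblasts and was not called (log2 fold change -0.11, and 0.31 without TMM).

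The carnitine shuttle split by isoform. Cpt1b, the muscle form of carnitine palmitoyltransferase 1, had 21.1, 24.9 and 38.2 CPM in cardiomyocytes and 7.98, 10.8 and 17.6 CPM in fibroblasts (log2 fold change 1.23 ± 0.26 SE, adjusted p = 0.0029, edgeR). Cpt1a, the liver form, had 25.2, 81.4 and 129 CPM in cardiomyocytes and 85.2, 149 and 162 CPM in fibroblasts (log2 fold change -0.99 ± 0.27 SE, adjusted p = 0.0112). The Cpt1b ranges did not overlap, while those of Cpt1a did, with cardiomyocytes of Tg mouse 1, Tg mouse 2 and WT mouse 2 above the lowest fibroblast value. Within each mouse Cpt1a was lower in cardiomyocytes in 6 of 6. The Cpt1a call was lost without TMM (-0.56) and when the mouse was left out of the model (-0.80).

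Per kilobase, the ratio of Cpt1a to Cpt1b was 0.750 to 3.84 in cardiomyocytes, with a median of 1.86, and 3.25 to 13.2 in fibroblasts, with a median of 8.49. The ratio was lower in cardiomyocytes in 6 of 6 mice, by a mean log2 difference of -2.24 (SD 0.72, n = 6 mice), and does not depend on the scaling between libraries. Cpt2, which turns carnitine esters back into acyl-CoA inside the mitochondrion, was called higher in cardiomyocytes (log2 fold change 1.06 ± 0.24 SE, 2.09-fold), at 16.4 to 42.7 CPM in cardiomyocytes and 9.58 to 16.7 CPM in fibroblasts. Slc25a20, the carnitine-acylcarnitine carrier whose start region is printed above, had 31.1 to 51.7 CPM in cardiomyocytes and 27.3 to 39.7 CPM in fibroblasts and was not called (log2 fold change 0.42, adjusted p = 0.0929, edgeR). It was called without TMM (0.85) and with the mouse left out of the model (0.45).

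All 8 genes of the beta-oxidation spiral had a positive difference and 7 were called higher in cardiomyocytes. The acyl-CoA dehydrogenases, which take the first step, differ in the chain length they accept. Acadvl, for very long chains, had 95.4, 127 and 149 CPM in cardiomyocytes and 80.7, 86.9 and 107 CPM in fibroblasts (log2 fold change 0.49 ± 0.16 SE). Acadl, for long chains, had 93.6, 118 and 125 CPM in cardiomyocytes and 71.7, 84.7 and 115 CPM in fibroblasts (0.39 ± 0.16 SE, adjusted p = 0.0678, edgeR, not called). Acadm, for medium chains, had 81.5, 126 and 153 CPM in cardiomyocytes and 45.1, 54.2 and 82.6 CPM in fibroblasts (1.09 ± 0.20 SE). Acads, for short chains, had 29.4, 46.3 and 52.8 CPM in cardiomyocytes and 16.4, 17.2 and 20.9 CPM in fibroblasts (1.23 ± 0.20 SE). Groups of Acads did not overlap, those of Acadm overlapped at WT mouse 1 of the fibroblasts and Tg mouse 1 of the cardiomyocytes, and those of Acadvl and Acadl overlapped. The differences between these genes were not tested, and 32.7% of the 31-base stretches of Acadvl are shared with Dvl2.

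The later steps of the spiral were higher as well. Hadh, the short-chain hydroxyacyl-CoA dehydrogenase, had 70.6, 103 and 127 CPM in cardiomyocytes and 37.4, 40.2 and 48.8 CPM in fibroblasts (log2 fold change 1.26 ± 0.18 SE, adjusted p = 2.13e-04, edgeR). Acaa2, the thiolase of the last step, had 129, 159 and 187 CPM in cardiomyocytes and 55.9, 64.1 and 80.1 CPM in fibroblasts (1.26 ± 0.17 SE, adjusted p = 1.87e-04). Neither gene's cell types overlapped. Hadhb was 1.75-fold higher in cardiomyocytes (0.81 ± 0.20 SE) and Hadha 1.45-fold (0.54 ± 0.17 SE). The start windows of these partners overlap, and their per-kilobase ratio of Hadha to Hadhb was 0.191 to 0.374 in cardiomyocytes and 0.238 to 0.392 in fibroblasts, lower in cardiomyocytes in 4 of 6 mice. The calls of Acadvl and Hadha were lost under several alternatives. Their fold changes were similar in most of these, but smaller in the authors' normalized table and with rep1 libraries alone. The Acadvl call was lost without Tg mouse 2 (0.49), WT mouse 1 (0.49), WT mouse 2 (0.44) or WT mouse 3 (0.48), without the count filter (0.47), in the authors' normalized table (0.35) and with rep1 libraries alone (0.31). The Hadha call was lost without Tg mouse 1 (0.55), Tg mouse 2 (0.48), WT mouse 1 (0.54) or WT mouse 2 (0.48), in the authors' normalized table (0.40) and with rep1 libraries alone (0.41). Acadl was called by DESeq2 (0.42), without TMM (0.82), with the mouse left out of the model (0.41) and without Tg mouse 3 (0.43).

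Of the 4 auxiliary enzymes, which prepare unsaturated chains for the spiral, Ech1, Decr1 and Eci1 were called higher. Ech1, a dienoyl-CoA isomerase, had 138, 171 and 225 CPM in cardiomyocytes and 69.5, 77.0 and 109 CPM in fibroblasts, with no overlap (log2 fold change 1.09 ± 0.20 SE). Decr1, the dienoyl-CoA reductase, had 34.7 to 63.2 CPM in cardiomyocytes and 17.6 to 27.9 CPM in fibroblasts (1.07 ± 0.19 SE), again with no overlap. Eci1, an enoyl-CoA isomerase, had 37.5 to 64.4 CPM in cardiomyocytes and 21.5 to 39.9 CPM in fibroblasts (0.85 ± 0.18 SE). Its relative Eci2 was not called, at 21.0 to 49.5 CPM in cardiomyocytes and 25.8 to 33.0 CPM in fibroblasts. Of the 31-base stretches of Eci2, 12.2% are shared with Eci3. Eci2 was called without Tg mouse 3 (0.58) and without TMM (0.77).

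All 3 electron transfer genes were higher in cardiomyocytes in 6 of 6 mice, as were 17.2% of all genes, with no overlap between cell types. The share of all genes without overlap between cell types was not computed, so for every member a lack of overlap only describes that gene. Etfa and Etfb, the subunits of electron transfer flavoprotein, had 96.8, 139 and 158 CPM and 118, 140 and 202 CPM in cardiomyocytes. In fibroblasts Etfa had 65.7, 77.2 and 82.5 CPM and Etfb 54.4, 58.6 and 82.9 CPM. Etfdh, the membrane dehydrogenase that hands their electrons to ubiquinone, had 42.4, 70.4 and 79.3 CPM in cardiomyocytes and 30.4, 32.5 and 38.3 CPM in fibroblasts. The log2 fold changes were 0.79 ± 0.16, 1.22 ± 0.17 and 0.96 ± 0.19 (SE) for Etfa, Etfb and Etfdh. Within mice, the gap of Etfdh was narrowest in Tg mouse 1. Cardiomyocyte markers moved with all these enzymes, 13 of 13 positive with a median log2 fold change of 1.90, as did the smooth muscle and pericyte markers, 8 of 8 positive with a median of 1.69. The part of either list in the enzymes' difference was not tested.

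The members that were lower in cardiomyocytes included a lipase, a receptor and a lipase inhibitor. Pnpla2, adipose triglyceride lipase, which opens triglyceride breakdown at the lipid droplet, had 11.4, 47.9 and 58.3 CPM in cardiomyocytes and 80.2, 88.4 and 103 CPM in fibroblasts, with no overlap (log2 fold change -1.30 ± 0.31 SE, adjusted p = 0.00637, edgeR). The Pnpla2 call was lost without TMM (-0.86) and with rep1 libraries alone (-1.11). Plin5, a droplet coat protein of oxidative tissue, had 4.09 to 14.8 CPM in cardiomyocytes and 1.93 to 7.72 CPM in fibroblasts and was not called (0.93 ± 0.41 SE), but was by DESeq2 (0.96) and without TMM (1.35).

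Of the PPAR receptors, Ppard alone was called. Ppard, encoding PPARδ, had 26.7, 32.2 and 48.3 CPM in cardiomyocytes and 124, 145 and 167 CPM in fibroblasts, with no overlap. It was 4.11-fold lower in cardiomyocytes (log2 fold change -2.04 ± 0.17 SE, adjusted p = 4.89e-06, edgeR), and the log2 fold change was -1.18 in the authors' normalized table. Ppara, encoding PPARα, had 1.44, 2.17 and 6.96 CPM in cardiomyocytes and 0.463, 1.04 and 2.15 CPM in fibroblasts and was not called (1.34 ± 0.65 SE, adjusted p = 0.120), although it was without Tg mouse 3 (1.76). Per kilobase the ratio of Ppard to Ppara was 7.23 to 26.7 in cardiomyocytes and 65.9 to 367 in fibroblasts, lower in cardiomyocytes in 6 of 6 mice (mean log2 difference -3.40, SD 1.38). This ratio rests on few Ppara counts, and Ppara ranked last per kilobase among the members in both cell types. Rxra, their shared partner, had 121, 127 and 137 CPM in cardiomyocytes and 73.7, 92.5 and 100 CPM in fibroblasts (0.50 ± 0.16 SE, adjusted p = 0.0298). Rxra did not overlap, yet its call was lost without any mouse other than Tg mouse 3 (0.48 to 0.54), without the count filter (0.48), in the authors' normalized table (0.53) and with rep1 libraries alone (0.40).

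Angptl4, a secreted inhibitor of lipoprotein lipase and a PPAR target in several tissues, had the largest fall of the members. It had 1.03, 6.19 and 10.5 CPM in cardiomyocytes and 19.2, 77.6 and 115 CPM in fibroblasts, with no overlap, and was 12.7-fold lower in cardiomyocytes (log2 fold change -3.67 ± 0.40 SE, adjusted p = 3.72e-05, edgeR). Ucp3, a mitochondrial carrier of muscle that is raised by fatty acids, had 2.33, 3.59 and 32.3 CPM in cardiomyocytes and 0.604, 0.767 and 1.97 CPM in fibroblasts (2.75 ± 0.54 SE, adjusted p = 0.0020, edgeR), and the log2 fold change was 3.34 with the mouse left out of the model. Tg mouse 2 (32.3 CPM) and WT mouse 2 (15.1 CPM) stood far above the other cardiomyocytes, which had 2.33 to 4.69 CPM. Pdk4, the kinase that turns off pyruvate dehydrogenase when fat is burnt, had 24.5, 29.7 and 54.5 CPM in cardiomyocytes and 15.7, 26.8 and 32.4 CPM in fibroblasts and was not called (0.37 ± 0.20 SE), but was without TMM (0.80). Macrophage markers moved with the lower members, 12 of 12 negative with a median of -2.19, and their part in these differences was not tested.

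Outside the members, 85 other fatty acid genes were read, covering transporters, synthases, peroxisomal enzymes, ketone metabolism and co-activators. Of the 80 tested, 25 were called higher and 13 lower in cardiomyocytes, against 18.3% and 24.1% of all genes, with a median log2 fold change of 0.35. Bdh1, a ketone body dehydrogenase, had 26.6 ± 8.71 CPM in cardiomyocytes and 6.86 ± 1.29 CPM in fibroblasts (SD, n = 6 mice each). Pdk2, another pyruvate dehydrogenase kinase, had 67.5 ± 23.9 CPM in cardiomyocytes and 24.8 ± 7.34 CPM in fibroblasts. Plin2, the common droplet coat protein, had 78.1 ± 33.0 CPM in cardiomyocytes and 1114 ± 383 CPM in fibroblasts. Dgat1, which makes triglyceride, had 7.08 ± 5.30 CPM in cardiomyocytes and 64.2 ± 20.6 CPM in fibroblasts.

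In cardiomyocytes, Tg+ and WT mice were compared to ask whether the Bag3 P209L transgene goes with a change in these genes. No member was called among the 33 tested, Ppara falling below the count filter (edgeR, 3 against 3 mice), and 0% of all 12114 genes tested were called. At an unadjusted p under 0.05 there was 1 member, against 0.718% of all genes. DESeq2 called 2 genes higher and 1 lower over the whole table, and 0 members. The log2 fold change was negative for 25 of the 33 members and for 5886 of all 12114 genes. Its median was -0.17 over the members and 0.01 over all genes. All 8 spiral genes, all 4 auxiliary genes and all 3 electron transfer genes had negative values, none of them called. Beside this, all 13 cardiomyocyte markers had negative values, with a median of -0.62, and summed to 3585, 7229 and 6979 CPM in Tg mice 1 to 3 and 8137, 9228 and 7630 CPM in WT mice 1 to 3. All 12 macrophage markers had negative values too, with a median of -0.43. The part of the markers of either list in the members' values was not tested.

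**Figure D3:**
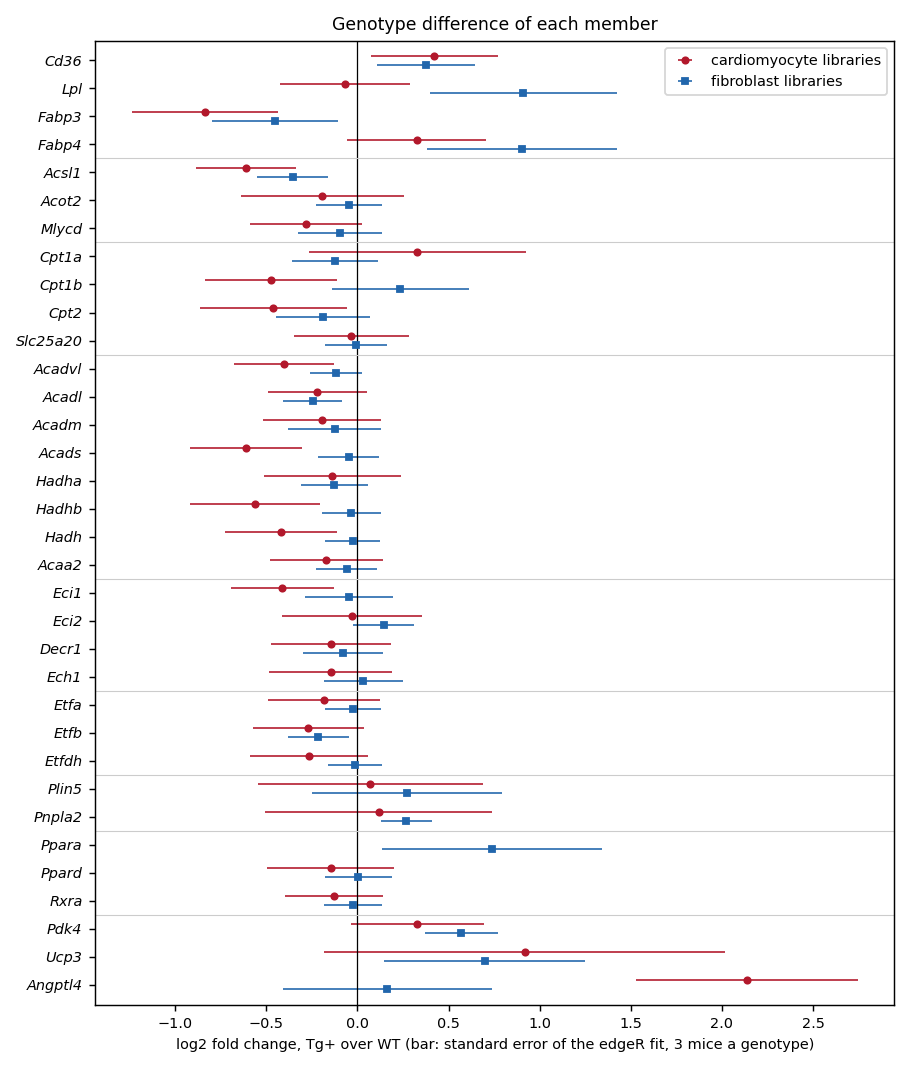
Log2 fold change of Tg+ over WT mice for each member in cardiomyocytes and in fibroblasts, with the standard error of the edgeR fit as a bar (3 mice a genotype). Nearly all values lie within 1 of 0, Angptl4 in cardiomyocytes stands apart at 2.14, and no member was called.

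The genotypes did not overlap in cardiomyocytes for 8 members. Cd36 and Angptl4 were higher in all Tg+ mice than in any WT mouse, where 2.58% of all genes were, and Fabp3, Acsl1, Acadvl, Acadl, Acads and Eci1 were lower in all Tg+ mice, where 2.43% of all genes were. Angptl4 had 10.5, 9.40 and 9.70 CPM in cardiomyocytes of Tg mice 1 to 3 and 1.03, 2.48 and 2.98 CPM in those of WT mice 1 to 3. These levels stood on 100, 48 and 27 counts in the Tg+ mice and on 3, 8 and 10 counts in the WT mice. By single library, without TMM, WT mouse 1 had 4.12 CPM in rep1 and 0 CPM in rep2. WT mouse 3 had 0 CPM in rep1 and 3.64 CPM in rep2, and WT mouse 2 had 3.23 and 3.22 CPM. The libraries of Tg+ mice had 9.63 to 13.3 CPM. The log2 fold change was 2.14 ± 0.61 (SE), with an adjusted p of 1.00 in edgeR (unadjusted p = 0.00766). It was 1.86 to 2.38 with any single mouse left out and 2.33 with the letter of the animal code as a covariate. With rep1 libraries alone Angptl4 fell below the count filter. In the same mice fibroblasts had 53.2, 115 and 60.2 CPM in Tg mice 1 to 3 and 19.2, 95.0 and 96.5 CPM in WT mice 1 to 3, which overlapped.

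Cd36 had 1473, 1369 and 1548 CPM in cardiomyocytes of Tg mice 1 to 3 and 935, 1205 and 1080 CPM in those of WT mice 1 to 3. Its log2 fold change was 0.42 ± 0.35 (SE). Endothelial cells also make Cd36, and 11 of 12 endothelial markers had positive values, with sums of 8480, 4593 and 2675 CPM in Tg mice 1 to 3 and 4532, 5414 and 2908 CPM in WT mice 1 to 3. The part of endothelial cells in the Cd36 level was not tested.

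Acsl1 had 47.3, 39.8 and 44.3 CPM in cardiomyocytes of Tg mice 1 to 3 and 70.2, 65.0 and 61.9 CPM in those of WT mice 1 to 3. The gap between the groups was wider than the spread in either, but the test across genes did not call it (log2 fold change -0.61 ± 0.27 SE). Fabp3 had 152, 364 and 264 CPM in Tg mice 1 to 3 and 454, 540 and 365 CPM in WT mice 1 to 3, with the highest Tg+ mouse just under the lowest WT mouse (-0.84 ± 0.40 SE). Acads had 29.4, 29.7 and 43.7 CPM in Tg mice 1 to 3 and 48.9, 52.4 and 52.8 CPM in WT mice 1 to 3 (-0.61 ± 0.31 SE). Acadvl averaged 110 ± 13.0 CPM in Tg+ mice and 143 ± 8.12 CPM in WT mice (SD, n = 3 each), Acadl 108 ± 12.3 CPM in Tg+ mice and 123 ± 2.70 CPM in WT mice, and Eci1 43.0 ± 5.77 CPM in Tg+ mice and 56.2 ± 7.14 CPM in WT mice.

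Cpt1b had 22.6, 27.1 and 21.2 CPM in cardiomyocytes of Tg mice 1 to 3 and 38.2, 37.2 and 21.1 CPM in those of WT mice 1 to 3 (log2 fold change -0.47 ± 0.36 SE), and the groups overlapped at WT mouse 3. Pdk4 had 24.5, 54.5 and 33.8 CPM in Tg mice 1 to 3 and 29.8, 29.6 and 28.4 CPM in WT mice 1 to 3 (0.33 ± 0.36 SE), Tg+ mice being spread on both sides of the WT mice. Pnpla2 had 58.0, 50.6 and 19.9 CPM in Tg mice 1 to 3 and 45.2, 58.3 and 11.4 CPM in WT mice 1 to 3, fully overlapping. Its log2 fold change of 0.12 ± 0.62 (SE) turned negative without WT mouse 3, at -0.33. Ppara had 1.79, 1.75 and 1.44 CPM in Tg mice 1 to 3 and 2.55, 6.96 and 3.21 CPM in WT mice 1 to 3, too few counts to be tested. Etfb had a log2 fold change of -0.27 ± 0.30 and Rxra of -0.13 ± 0.27 (SE).

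**Figure D4:**
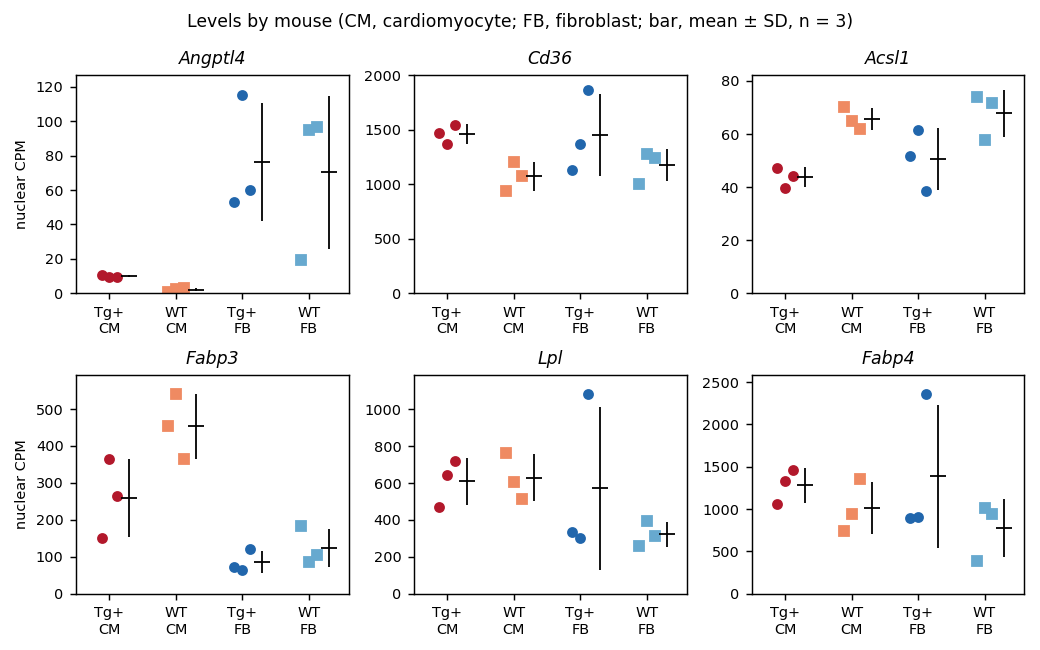
Levels of Angptl4, Cd36, Acsl1, Fabp3, Lpl and Fabp4 in nuclear CPM by mouse, genotype and cell type, with mean ± SD (n = 3 mice a group). Angptl4 and Cd36 are higher and Acsl1 and Fabp3 lower in Tg+ cardiomyocytes with no overlap, and 1 Tg+ fibroblast library is far above the rest in Lpl and Fabp4.

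In fibroblasts, 0 of 34 members were called by genotype (edgeR, 3 against 3 mice), as were 0% of all 13858 genes tested. At an unadjusted p under 0.05 there was 1 member, against 5.04% of all genes, and DESeq2 called 1 gene higher and 5 lower over the whole table and 0 members. The median log2 fold change was -0.03 over the members and 0.02 over all genes. Several cell type marker lists leaned to 1 side by genotype in these libraries, with no marker called. The macrophage markers were negative in 12 of 12 (median -0.73) and summed to 5917 to 14640 CPM in Tg+ mice and 16410 to 20090 CPM in WT mice, while the endothelial markers were positive in 12 of 12 (median 0.49) and summed to 5243 to 7211 CPM in Tg+ mice and 3775 to 4780 CPM in WT mice. Neither sum overlapped between the genotypes. The cardiomyocyte markers were negative in 12 of 13 (median -0.44), the lymphocyte markers in 7 of 8 and the erythroid markers in 5 of 5. The fibroblast markers were positive in 11 of 12 (median 0.39) and the smooth muscle and pericyte markers in 5 of 8. The cardiomyocyte marker sum was 3706 CPM in WT mouse 1, against 1621 and 1840 CPM in the other WT mice. In Tg+ mice it was 1409 to 2309 CPM. The fibroblast marker sum was 5114 CPM in WT mouse 1, against 18620 and 11690 CPM in the other WT mice. In Tg+ mice it was 11330 to 19110 CPM. Both of these sums overlapped between the genotypes. The part of any of these cells in the members' values was not tested. Pnpla2 and Pdk4 were higher in all Tg+ mice, where 4.02% of all genes were, and Acadvl and Acadl were lower, where 9.07% of all genes were. Pdk4 had 27.9, 32.4 and 29.5 CPM in fibroblasts of Tg mice 1 to 3 and 25.7, 21.9 and 15.7 CPM in those of WT mice 1 to 3 (log2 fold change 0.57 ± 0.20 SE, adjusted p = 0.782, edgeR). Pnpla2 had 92.5, 103 and 90.0 CPM in Tg mice 1 to 3 and 80.2, 81.2 and 86.7 CPM in WT mice 1 to 3 (0.27 ± 0.14 SE). Acadl had 71.7, 83.2 and 81.7 CPM in Tg mice 1 to 3 and 115, 86.2 and 93.0 CPM in WT mice 1 to 3 (-0.25 ± 0.16 SE).

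The fibroblast library of Tg mouse 3 stood apart in the uptake genes Lpl and Fabp4. Lpl had 336, 300.3 and 1083 CPM in fibroblasts of Tg mice 1 to 3 and 258, 393 and 316 CPM in those of WT mice 1 to 3. Its log2 fold change was 0.91 ± 0.51 (SE) and 0.03 without Tg mouse 3. Fabp4 had 897, 908 and 2364 CPM in Tg mice 1 to 3 and 386, 1017 and 937 CPM in WT mice 1 to 3. In the same library the macrophage markers summed to 5917 CPM, against 10850 and 14640 CPM in the other Tg+ mice and 16410 to 20090 CPM in WT mice. Its smooth muscle and pericyte markers summed to 1916 CPM, against 376 and 456 CPM in the other Tg+ mice and 316 to 613 CPM in WT mice. Its erythroid markers summed to 164 CPM, against 10480 and 13550 CPM in the other Tg+ mice and 2970 to 15070 CPM in WT mice, and its lymphocyte markers to 25.8 CPM, against 84.2 and 111 CPM in the other Tg+ mice and 83.3 to 188 CPM in WT mice. Among cardiomyocytes, Tg mouse 3 likewise had the lowest macrophage (1189 CPM), erythroid (70.3 CPM) and lymphocyte (7.93 CPM) sums. It also had the highest smooth muscle and pericyte sum there (4586 CPM). In the fibroblast library of Tg mouse 3 the endothelial markers summed to 6107 CPM. The other Tg+ mice had 7211 and 5243 CPM, and WT mice had 3775 to 4780 CPM. The 9 adipocyte markers other than Fabp4 summed to 124 CPM in that library. Their sum was 93.8 and 76.7 CPM in the other Tg+ mice and 48.1 to 72.8 CPM in WT mice. The part of any of these cells in the Lpl and Fabp4 levels was not tested.

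Among the remaining genes in fibroblasts, Cd36 had a log2 fold change of 0.38 ± 0.27 (SE), with 1131, 1372 and 1866 CPM in Tg mice 1 to 3 and 1008, 1280 and 1239 CPM in WT mice 1 to 3. Acsl1 had 51.8, 61.6 and 38.5 CPM in Tg mice 1 to 3 and 73.9, 57.7 and 71.8 CPM in WT mice 1 to 3 (-0.36 ± 0.19 SE). The groups of both genes overlapped. Cpt1b (0.24 ± 0.37), Cpt2 (-0.19 ± 0.26), Eci2 (0.14 ± 0.17), Etfb (-0.21 ± 0.17) and Ppara (0.74 ± 0.60) were not called either.

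**Figure D5:**
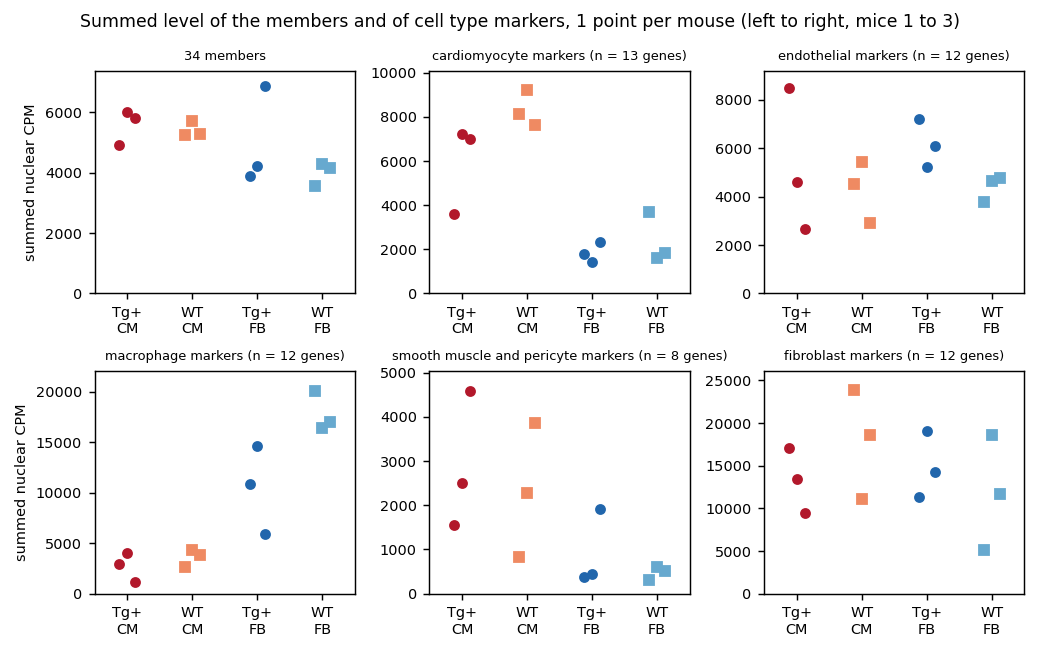
Summed nuclear CPM of the 34 members and of the cell type marker lists by mouse, genotype and cell type (1 point per mouse, mice 1 to 3 from left to right). Cardiomyocyte markers are lower in all Tg+ than in all WT cardiomyocyte libraries, and Tg mouse 3 has the lowest macrophage sum of the fibroblast libraries.

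The difference of the genotype effect between the cell types was tested as an interaction, in which 0 of 34 members and 0% of all genes were called (edgeR). At an unadjusted p under 0.05 there was 1 member, Angptl4, against 0.934% of all genes, and DESeq2 called 0 members. The median interaction was -0.09 over the members and 0.06 over all genes. For Angptl4 the genotype difference in cardiomyocytes exceeded that in fibroblasts by 2.07 ± 0.54 (SE, log2) with an adjusted p of 1.00 in edgeR, and by 1.35 to 2.48 over the alternative fits. The cell type gap of Angptl4 within a mouse was -2.34, -3.60 and -2.61 in Tg mice 1 to 3 and -3.97, -5.17 and -4.95 in WT mice 1 to 3, without overlap. These gaps reuse the cardiomyocyte levels given above, with 3, 8 and 10 counts in WT mice 1 to 3, and add no separate evidence. The share of all genes whose gaps did not overlap was not computed. For Lpl (-0.63 ± 0.53), Cpt1b (-0.57 ± 0.52), Acads (-0.50 ± 0.40), Eci1 (-0.31 ± 0.38), Pdk4 (-0.25 ± 0.43), Etfdh (-0.20 ± 0.40), Acsl1 (-0.15 ± 0.38), Pnpla2 (0.08 ± 0.66), Cd36 (0.17 ± 0.41) and Ppara (-1.84 ± 1.26) the interaction lay within 2 standard errors of 0.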

How the data were processed

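Total RNA of isolated cells was captured on oligo(dT) beads and sequenced on Illumina machines, per the labels' protocols. Cardiomyocyte samples had a further round of sequencing, and it is not stated if the repeats of a mouse are those rounds. The first deposited table holds the authors' estimated counts per gene, and 44.6% of its values are not whole. The second holds a signal that the authors normalized, and served as an alternative. The build GRCm38.p6 and the tools R 3.4.4, DESeq2 1.18.1 and kallisto 0.44.0 stand in the submitters' processing notes with no role or order. No source names the annotation. All tests and CPM values start from the estimated counts.

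Both cardiomyocyte libraries of each mouse were added up and rounded, giving 12 columns, 1 per mouse and cell type, and the 13 mitochondrial genes were removed. edgeR 4.0.16 in R 4.3.3 was used (filterByExpr, TMM, robust glmQLFit, glmQLFTest, two-sided, Benjamini-Hochberg over all genes tested), with DESeq2 1.42.0 and limma 3.58.1 as alternatives. Genes tested numbered 12114 and 13858 for genotype in cardiomyocytes and fibroblasts and 14769 for cell type and interaction. The scripts were tested on simulated data. The mouse is the replicate, so p-values measure the spread between mice. SE is the log2 fold change over the root of its F value. CPM values in the text are scaled over all 12 columns together. Limits from counts cover counting error only.

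The repeat number pairs no mice: deviations of libraries with the same number correlated at a mean of 0.0134 (-0.489 to 0.447). Transcript lengths and 31-base sharing come from GENCODE M21 principal transcripts on GRCm38, start windows from RefSeq on GRCm38.p6. The 31-base sharing describes the transcripts and not the authors' counting. Members, gene lists, markers and tests were chosen with earlier results of these data known. All members were named for cell type. For genotype and interaction, the named genes were Cd36, Cpt1b, Ppara and Pdk4 and the member with the lowest p of each of the 9 roles, and further members whose groups did not overlap or that a single library decided were named after their values were seen. Of 85 other fatty acid genes, those given with values are the 2 of lowest p among those called higher and the 2 among those called lower.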

Additional observations from a re-analysis of the deposited data

Results flagged for a closer look

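The log2 ratio of the cardiomyocyte over the fibroblast level of each member was screened over the 6 mice for a mouse far from the others, which chance flags in about 1 in 20 groups. Of the 34 members screened, 2 stood out. Acadl, the long-chain acyl-CoA dehydrogenase, had a ratio of 0.0655 in WT mouse 1, below the 0.39 to 0.54 of the other mice. The gap took 0.679 of the whole range, above Dixon's 95% critical value for 6 mice, and WT mouse 1 also had the highest mitochondrial share of the fibroblast libraries (74.2%). That fibroblast library had the highest cardiomyocyte marker sum as well, 3706 CPM against 1409 to 2309 CPM in the other fibroblast libraries. Its fibroblast marker sum was the lowest, 5114 CPM against 11330 to 19110 CPM. Etfdh had a ratio of 0.275 in Tg mouse 1, below the 0.97 to 1.31 of the other mice, with a gap of 0.673 of the range. No cause of either value was tested.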

How the results depend on the processing

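In cardiomyocytes against fibroblasts, the number of members called higher was 20 and ran from 16 to 24 with any single mouse left out. It was 17 with rep1 libraries alone or the authors' normalized table, 23 with DESeq2, 26 without TMM and 22 with no replicate block (mouse left out of the model). The number called lower was 4 with any single mouse left out and 2 without TMM, where Cpt1a and Pnpla2 were lost. In the genotype and interaction fits 0 members were called under every alternative run. A replicate block by repeat number, with the mouse as a random effect, called 0 members in cardiomyocytes and gave Angptl4 2.50 and Fabp3 -0.91. The repeat number pairs no mice. Several values changed sign, most of them near 0, and none of these was called in either direction. Between cell types, Cd36 (-0.05) was 0.38 and Acsl1 (-0.11) 0.31 without TMM, where all genes shifted upwards, and Cd36 ran from -0.13 to 0.055 with a mouse left out. For genotype in cardiomyocytes, Pnpla2 (0.12) was -0.28 in the authors' table, -0.15 with rep1 alone and -0.33 to 0.58 with a mouse left out. For genotype in fibroblasts, Cpt1b (0.24) was -0.054 with the letter of the animal code and -0.080 to 0.62 with a mouse left out. In the interaction, Pnpla2 (0.076) was -0.48 in the authors' table, -0.052 without TMM, -0.56 with rep1 alone and -0.62 to 0.57 with a mouse left out. Cpt1b, which was not near 0 in the main fit (-0.57), was 0.00028 with rep1 alone. With a mouse left out, Cd36 ran from -0.0052 to 0.21, Acsl1 from -0.45 to 0.072 and Etfdh from -0.53 to 0.089. The cause was not tested. Depth limits Ppara, Ucp3 and Angptl4 in cardiomyocytes, where single mice hold few counts.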
